A study of Mus musculus with 6 samples.

Results

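The miR-34 and miR-449 microRNAs (miRNAs) were followed in vitrified and fresh mouse blastocysts through 8 assays of the TaqMan Array Rodent MicroRNA cards. The assays were chosen by name alone, as those called miR-34 or miR-449 with any letter or arm, without the assays marked with #, and they are 8 of the 750 miRNA assays on cards A and B. Of these, 5 are named for miR-34 and 3 for miR-449. Card A holds 5 of them, namely mmu-miR-34a, mmu-miR-34c, mmu-miR-34b-3p, mmu-miR-449a and 1 assay named mmu-miR-449b, and card B holds 3, namely mmu-miR-34b, mmu-miR-34b-5p and a second assay named mmu-miR-449b.

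Total RNA of Kunming mouse blastocysts came from 3 vitrified pools (V1 to V3) and 3 fresh pools (F1 to F3). The females were 5 weeks old and superovulated. Blastocysts of both groups were collected from excised oviducts 92 to 94 hours after the hCG injection. The vitrified blastocysts had spent 30 seconds in pretreatment solution with ethylene glycol and DMSO. They then spent 25 seconds in EDFS30 in an open-pulled straw before liquid nitrogen. They were thawed in 0.5 M sucrose for 5 minutes and washed in CZB medium. Their survival was judged hours after warming. The fresh pools were not vitrified or thawed, and each pool gave 1 value per assay. The readout is the threshold cycle (Ct), the PCR cycle in which the signal of a well passes a fixed level, and an earlier Ct stands for more of the miRNA.

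A miRNA guides Argonaute proteins to mRNAs that pair with its seed, the bases near its 5′ end, and the mRNAs are repressed. The miR-34 and miR-449 genes lie apart in the genome but give miRNAs with the same seed, so they are treated as one family with overlapping targets among cell cycle and Notch pathway genes. The miR-34 genes are known as direct targets of p53, and the miR-34b, miR-34c and miR-449 genes are known for high expression in testis and in multiciliated epithelia such as that of the oviduct and the airways.

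The mature sequences are shown because the family is defined by its seed and because the arms of one hairpin behaved differently below. They are from RefSeq (GRCm38.p6), written 5′ to 3′ with the seed (bases 2 to 8) in capitals, and were matched by name, with an assay name that gives no arm read as the 5p arm.
mmu-miR-34a-5p: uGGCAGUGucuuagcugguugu
mmu-miR-34b-5p: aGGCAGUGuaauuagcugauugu
mmu-miR-449a-5p: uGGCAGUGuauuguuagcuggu
mmu-miR-449c-5p: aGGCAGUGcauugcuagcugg
mmu-miR-34b-3p: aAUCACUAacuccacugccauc
mmu-miR-34c-3p: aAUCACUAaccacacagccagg

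The 5p miRNAs share the seed GGCAGUG, which 4 of the 1679 mature mouse miRNAs in that table carry (0.238%). No 5p entry was matched for mmu-miR-34c or mmu-miR-449b, which are therefore not in this count. The 3p miRNAs of miR-34b and miR-34c share a different seed, AUCACUA, which no other miRNA of the table carries, so mmu-miR-34b-3p belongs to the family by its gene and not by its seed. Behind the seed the 5p sequences part: mmu-miR-449a-5p and mmu-miR-449c-5p have the same base at 18 of 21 positions counted from the 5′ end, mmu-miR-34a-5p and mmu-miR-449a-5p at 15 of 22, and mmu-miR-34a-5p and mmu-miR-34b-5p at 11 of 22. In RefSeq, Mir34b and Mir34c are each other's nearest miRNA genes, and Mir449a, Mir449b and Mir449c lie together inside Cdc20b. The older name Mirn449b stands there for both Mir449b and Mir449c, and the names on the cards do not tell which of these each of the assays called mmu-miR-449b reads.

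V1 and F1 stood apart from the other pools before any comparison of groups. A Ct was determined for 218 of 750 miRNA assays in V1 and 140 in F1, against 382 to 409 in the other pools. Of the 20 assays for miR-290 to miR-295 and miR-302, the miRNAs that mark pluripotent cells of the early embryo, 0 were determined in V1 and F1 and 8 to 11 in each of the other pools. Their summed level, relative to U6 on the log2 scale, was −7.50 in V2, −5.30 in V3, −5.57 in F2 and −7.23 in F3. The summed level of 3 assays for miR-143 and miR-145, which mark smooth muscle and stroma, was −3.48 in V2, −3.79 in V3, −4.44 in F2 and −1.35 in F3, and −10.6 in V1 and −12.0 in F1. Assays for miR-142 and miR-223 of myeloid cells summed to between −3.99 and −3.69 in V2, V3, F2 and F3, to −7.75 in V1 and to −9.15 in F1. Markers of the embryo were thus absent from the determined wells of V1 and F1. Some assays of the smooth muscle and stroma, myeloid, red blood cell and muscle lists were determined in all pools. Others of these lists, such as hsa-miR-143 and mmu-miR-142-5p, were undetermined in V1 and F1. The neuron assay was determined in V2, V3, F2 and F3 and the liver assay in V3 and F2 only. These sums cover different numbers of assays with their own efficiencies, so they can be set against each other between pools but not between lists. An undetermined well adds nothing to a sum, so the sums of V1 and F1 also hold fewer assays. The part of other cells in the levels of the family was not tested. In pooled embryos, fewer cells of a type and less RNA per cell cannot be told apart. Fold changes and arm gaps of the family that rest on V1 and F1 are given with and without them. Those of the other lists are given with all pools only.

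The family was well represented among the determined wells. A Ct was obtained for 5 of the 8 assays in V1 and F1, 6 in V2 and F2, and 7 in V3 and F3, a mean of 6.0 ± 1.0 (SD, n = 3) in both groups and a difference of 0.0 (2-sided exact permutation test, p = 1.0). Each same-numbered pair of pools had the same count. The 5 assays determined in all pools were mmu-miR-34c, mmu-miR-449a, mmu-miR-34b-3p, mmu-miR-34b-5p and mmu-miR-449b of card B, whereas 16.3% of the 750 miRNA assays were determined in all pools, 80 on card A and 42 on card B.

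Levels are given as ΔCt, which subtracts the mean Ct of the 4 U6 snRNA wells of the same card and pool, so that a lower ΔCt is a higher level. In the pools numbered 2 and 3, mmu-miR-34b-3p had the lowest ΔCt, between 6.86 and 9.0. It was followed by mmu-miR-34c, between 10.10 and 10.36, mmu-miR-34a, between 9.96 and 10.57, and mmu-miR-449a, between 10.39 and 10.94. The range of mmu-miR-34b-3p lay apart from the others, while those of mmu-miR-34c and mmu-miR-34a overlapped, as did those of mmu-miR-34a and mmu-miR-449a. On card B, mmu-miR-449b lay between 12.56 and 14.16 and mmu-miR-34b-5p between 14.54 and 15.59, and these ranges did not overlap. Ct values of different assays also carry the efficiency of each assay, so this order is that of the signals. Among the determined assays of its card, mmu-miR-34b-3p was earlier than 67.0% to 80.3% of the others in these 4 pools and mmu-miR-34c than 51.7% to 58.4%. Lower down, mmu-miR-34b-5p was earlier than 35.5% to 37.8%, and mmu-miR-34b than 5.2% in V3 and 20.0% in F3. The determined assays of the family thus lay mostly in the middle of the range, with mmu-miR-34b-3p above and these below.

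**Figure D1:**
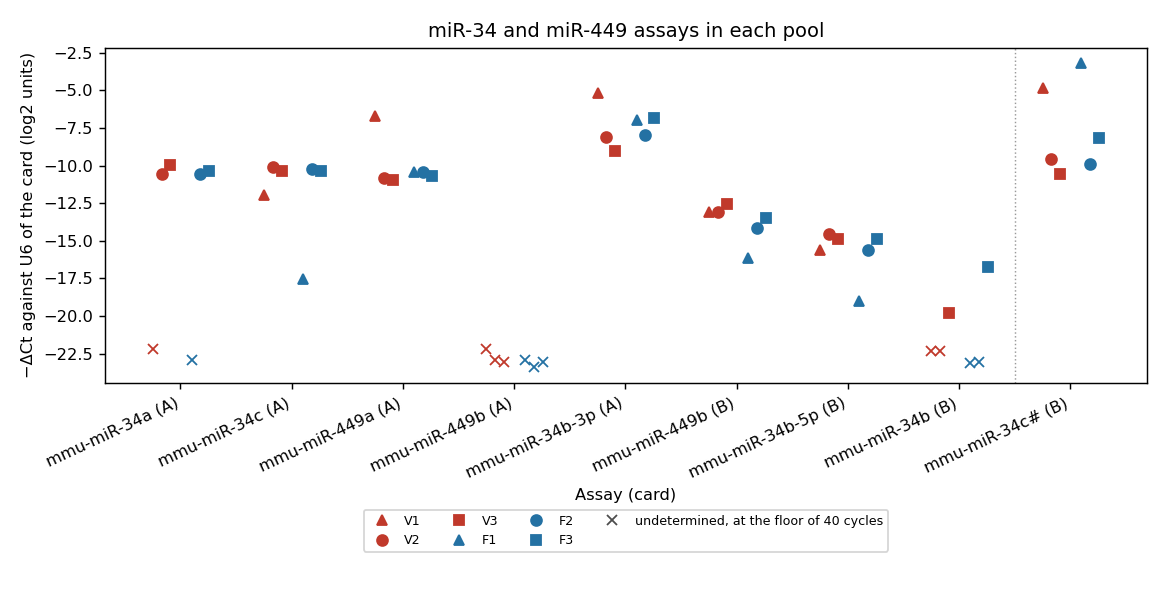
The y axis gives −ΔCt against U6 of the same card in log2 units for each assay (card in brackets), with vitrified pools in red, fresh pools in blue, and the pool number as the shape. Crosses are undetermined wells, drawn at the ΔCt that 40 cycles would give. The pools numbered 2 and 3 lie close together for mmu-miR-34a, mmu-miR-34c and mmu-miR-449a, while V1 and F1 (triangles) both lie apart for mmu-miR-34c and mmu-miR-34c# and only V1 does for mmu-miR-449a. To the right of the dotted line is mmu-miR-34c#, the other arm of the miR-34c hairpin.

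Between vitrified and fresh pools, limma could test 6 family assays. After Benjamini-Hochberg adjustment over 335 assays 0 of the 6 were below 0.05, and 0 were below it before adjustment. Over all 335 assays tested, the share with an adjusted p-value under 0.05 was 0.0% and that with an unadjusted one was 0.299%. An equal-variance comparison of each assay, the methods' t-test, also found 0 of the 6 under 0.05 before adjustment, against 9 of all 335 assays. The log2 fold change was above 0 in 5 of the 6 assays with a median of 1.24, against a median of −0.053 over all assays tested, of which 48.1% were above 0. In the pools numbered 2 and 3 alone, 4 of the 6 were above 0, mmu-miR-449a having turned, and the median was 0.13, against −0.023 over the 326 assays tested there. The family median of 1.24 thus rested on V1 and F1.

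The card B assay of mmu-miR-449b was the one family member whose groups did not overlap with U6 as the reference. Its raw Ct was 30.71, 30.77 and 29.08 in the vitrified pools V1 to V3 and 33.03, 31.09 and 30.63 in the fresh pools F1 to F3. The ΔCt was 13.05, 13.05 and 12.56 in the vitrified pools V1 to V3 and 16.15, 14.16 and 13.47 in the fresh pools F1 to F3. Every vitrified pool thus had a higher level than every fresh pool after subtraction of U6, whereas the raw values overlapped.
The mean ΔCt was 12.89 ± 0.28 (SD, n = 3) over the vitrified and 14.59 ± 1.39 (SD, n = 3) over the fresh pools, and the log2 fold change was 1.70 (standard error 0.996, 95% interval −0.71 to 4.11, adjusted p = 0.998 from limma). The exact permutation test gave p = 0.1 (2-sided), the smallest that 3 pools against 3 allow. Of the 80 card A and 42 card B assays determined in all pools, only this one had all vitrified above all fresh pools (0.82%). In either direction the groups of 1.64% did not overlap. The exact permutation test gives p = 0.1 to any such split, so a share of 1.64% is no excess. The level was higher in the vitrified pool of each number. The difference on the log2 scale was 3.09 for V1 over F1, 1.11 for V2 over F2 and 0.91 for V3 over F3. This pattern was shared by 5.74% of the assays determined in all pools, mmu-miR-449b included. The labels give the pool numbers but no pairing. Without V1 and F1 the log2 fold change was 1.01 (95% interval −0.56 to 2.58). With the mean of the miRNA assays determined in all pools as the reference, the groups of mmu-miR-449b (log2 fold change 1.84, unadjusted p = 0.0401, adjusted p = 0.986 from limma) and of mmu-miR-34b-5p did not overlap, and these 2 were the only assays determined in all pools with every vitrified pool higher (1.64%; 3.28% in either direction). With the mean of the miRNA assays as the reference, 3 of all 335 assays tested were below 0.05 before adjustment. In every other setting no family assay was below it. The groups of mmu-miR-449b overlapped with the other small RNA controls as the reference (1.75). The assay of the same name on card A was undetermined in all 6 pools.

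For mmu-miR-34b-5p on card B, the raw Ct was 33.29, 32.26 and 31.40 in the vitrified pools V1 to V3 and 35.87, 32.53 and 32.01 in the fresh pools F1 to F3. The groups overlapped in ΔCt against U6, with 15.02 ± 0.56 (SD, n = 3) for the vitrified and 16.48 ± 2.21 (SD, n = 3) for the fresh pools, and the late well of F1 set the wide spread of the fresh group. The log2 fold change was 1.46 (standard error 1.29, 95% interval −1.66 to 4.58, adjusted p = 0.998 from limma). It was 0.51 without V1 and F1 (95% interval −1.05 to 2.07) and 0.20 without F1 alone. With the mean of the miRNA assays as the reference, where the groups did not overlap, it was 1.59 (standard error 0.837, unadjusted p = 0.0995, adjusted p = 0.986 from limma). The assay named mmu-miR-34b, also on card B, was determined only in V3, at a Ct of 36.30, and in F3, at 33.87, and was not tested. V3 minus F3 on the log2 scale was −3.08 for it and −0.031 for mmu-miR-34b-5p. Its name gives no arm, and whether both assays read the same miRNA was not tested.

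The raw Ct of mmu-miR-34c, which is abundant in sperm as well as in ciliated cells, was 29.77, 27.20 and 27.33 in the vitrified pools V1 to V3 and 34.62, 26.82 and 27.28 in the fresh pools F1 to F3. Apart from V1 and F1, all wells lay between 26.82 and 27.33 and the groups overlapped. The ΔCt was 10.80 ± 1.0 (SD, n = 3) over the vitrified and 12.70 ± 4.19 (SD, n = 3) over the fresh pools, and the log2 fold change was 1.90 (standard error 2.12, 95% interval −3.23 to 7.03, adjusted p = 0.998 from limma). The difference came from V1 and F1, which differed by 5.59 on the log2 scale, while V2 and F2 differed by 0.13 and V3 and F3 by −0.035. Without V1 and F1 the log2 fold change was 0.050 (95% interval −1.38 to 1.48), and without F1 alone it was −0.52. The interval without V1 and F1 leaves room for differences of more than 2-fold either way.

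For mmu-miR-34a, the member best known as a p53 target, the wells of V1 and F1 were undetermined. The raw Ct was 27.67 for V2, 26.92 for V3, 27.16 for F2 and 27.32 for F3, and the groups overlapped. The ΔCt was 10.26 ± 0.43 (SD, n = 2) over the vitrified and 10.47 ± 0.14 (SD, n = 2) over the fresh pools, and the log2 fold change was 0.20 (standard error 1.14, 95% interval −2.87 to 3.28, adjusted p = 0.998 from limma). In the fit of the pools numbered 2 and 3, the same wells of mmu-miR-34a gave an interval of −1.31 to 1.71, since limma shares the spread over assays. The direction of the fold change turned with another reference, to −0.21 with the other small RNA controls and to −0.060 without a reference.

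The raw Ct of mmu-miR-449a was 24.52, 27.94 and 27.90 in the vitrified pools V1 to V3 and 27.53, 26.98 and 27.65 in the fresh pools F1 to F3. V1 was the earliest well by more than 2 cycles, and the other vitrified wells were later than every fresh well. The log2 fold change was 1.02 (standard error 1.34, 95% interval −2.23 to 4.27, adjusted p = 0.998 from limma) with all pools and −0.34 without V1 and F1 (95% interval −1.78 to 1.10), so its direction rested on V1. For mmu-miR-34b-3p, the raw Ct was 22.98, 25.17 and 25.97 in the vitrified pools V1 to V3 and 24.08, 24.55 and 23.81 in the fresh pools F1 to F3. The groups overlapped, and the log2 fold change was −0.14 (standard error 1.22, 95% interval −3.09 to 2.81, adjusted p = 0.998 from limma) and −1.13 without V1 and F1 (95% interval −2.97 to 0.71).

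**Figure D2:**
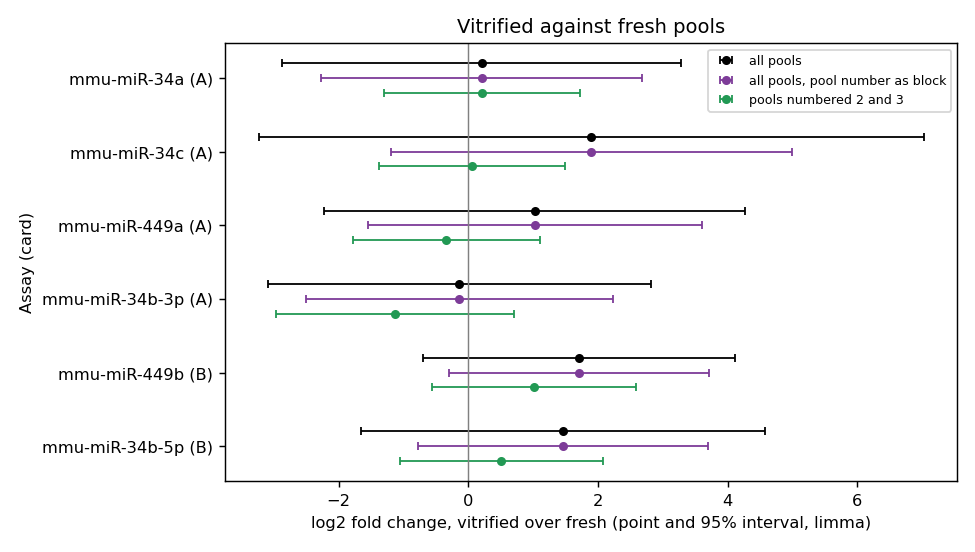
Each point is the log2 fold change of vitrified over fresh pools for a family assay, with its 95% interval from limma, for all 6 pools, for all 6 pools with the pool number as a block, and for the pools numbered 2 and 3. All intervals include 0, and the point for mmu-miR-34c moves from 1.90 to 0.050 when V1 and F1 are left out.

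The arms of a hairpin are cut from one precursor, and they did not keep the same relation in all pools. The gap between mmu-miR-34b-5p and mmu-miR-34b-3p in ΔCt, with the 3p arm always at the lower ΔCt, was 10.47 in V1 and 11.99 in F1, and between 5.88 and 7.99 in the other pools. For the miR-34c hairpin the other arm was read by mmu-miR-34c# on card B. Its raw Ct was 22.47, 27.27 and 27.09 in the vitrified pools V1 to V3 and 20.07, 26.82 and 25.30 in the fresh pools F1 to F3, so that V1 and F1 were the earliest wells. The ΔCt of mmu-miR-34c exceeded that of mmu-miR-34c# by 7.14 in V1 and 14.36 in F1, but by −0.21 to 2.19 in the other pools. Between vitrified and fresh blastocysts the mean gap differed by −1.60 cycles for miR-34b (2-sided exact permutation test with the pools taken as independent, p = 0.5), and by −1.64 without V1 and F1. Between same-numbered pools it differed by −1.52, −1.16 and −2.11 cycles, smaller in the vitrified pool each time (exact sign-flip test over pairs, p = 0.25, the smallest that 3 pairs allow). Leaving out 1 pool moved the difference to between −3.03 without V1 and −0.21 without F1, with the other pool numbered 1 still in the fit. For miR-34c the mean gap differed by −3.14 cycles (exact permutation test, p = 0.6), by −1.10 without V1 and F1, and between same-numbered pools by −7.22, 0.20 and −2.40 cycles (exact sign-flip test, p = 0.5). It ranged from −5.78 without F2 to 1.22 without F1, so that its direction turned with F1 left out. The arms of each hairpin were measured on different cards. The labels do not pair the same-numbered pools, which the sign-flip tests take as pairs.

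The family divided in how the mean ΔCt of V1 and F1 stood against that of the other pools. On card A, the mean ΔCt of V1 and F1 was higher than that of the other pools by a median of 4.71 cycles over the 80 assays determined in all pools, and all but 7 of these assays were higher. With a difference of 4.49 cycles, mmu-miR-34c was close to that median. In contrast, the mean ΔCt of V1 and F1 was lower for mmu-miR-449a and mmu-miR-34b-3p, by −2.14 and −1.89 cycles. These were 2 of only 7 assays of the card with a difference under 0. For both assays, only V1 lay below the range of the pools numbered 2 and 3, at a ΔCt of 6.71 and 5.17. F1 lay within that range for both. On card B the median was 1.84 cycles over 42 assays, and mmu-miR-449b (1.29) and mmu-miR-34b-5p (2.35) lay on either side of it, whereas mmu-miR-34c# was at −5.53. By name, mmu-miR-449a carries the same seed as mmu-miR-34b-5p, but the assays are on different cards with different medians. A relation of these differences to the seed was not tested. In V1, mmu-miR-34b-3p had the second earliest Ct of the 140 assays determined on card A and mmu-miR-449a the seventh. These differences are a description, with 2 pools on one side and 4 on the other.

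**Figure D3:**
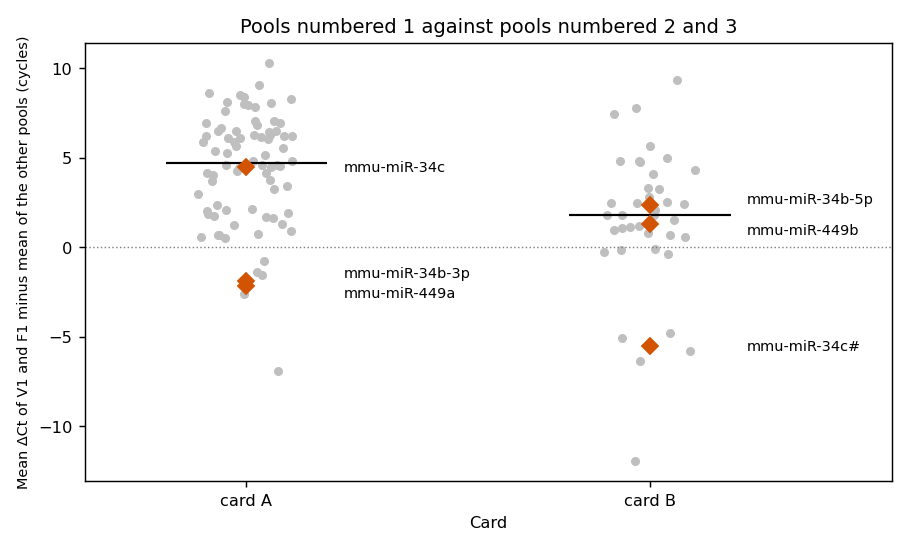
Each dot is a miRNA assay determined in all pools, placed by the mean ΔCt of V1 and F1 minus that of the other 4 pools, in cycles, with the median of each card as a line and assays of the miR-34 and miR-449 genes as diamonds. On card A, mmu-miR-34c sits near the median of 4.71 and mmu-miR-449a and mmu-miR-34b-3p sit below 0, and on card B mmu-miR-34c# sits at −5.53.

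**Figure D4:**
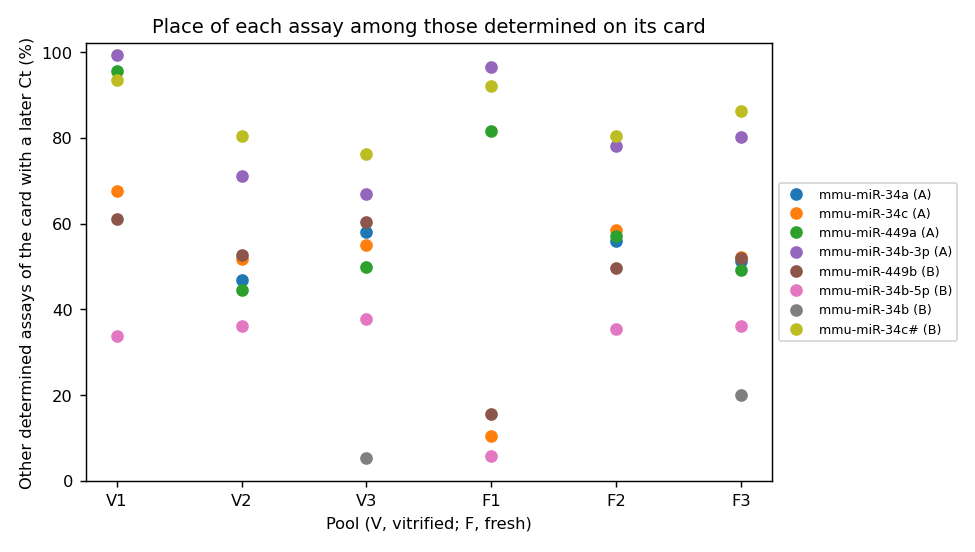
The y axis gives the share of the other determined assays of the same card that had a later Ct, in percent, for each family assay and mmu-miR-34c# in each pool. In V1, V2, V3, F2 and F3 mmu-miR-34c stays between 51.7% and 67.6% and drops to 10.3% in F1, while mmu-miR-449a rises from 44.5% to 57.1% in the pools numbered 2 and 3 to 95.7% in V1 and 81.6% in F1.

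The profiles most like those of the family were sought among the assays of the same card determined in all pools, by the root mean square difference between ΔCt profiles centred on their means over the 6 pools. The closest to mmu-miR-34c was mmu-miR-182 (0.448 cycles, against a median of 1.75 over 79 assays), followed by mmu-miR-31 (0.762) and mmu-miR-676 (0.803). The closest to mmu-miR-34b-3p were mmu-miR-574-3p (0.374), mmu-miR-449a (0.802) and mmu-miR-204 (0.839), against a median of 3.26. The closest to mmu-miR-449a was mmu-miR-34b-3p, followed by mmu-miR-574-3p (1.09) and mmu-miR-204 (1.17), against a median of 3.50. On card B, mmu-miR-449b was closest to mmu-miR-34b-5p (0.594), hsa-miR-200b (0.747) and hsa-miR-200c (0.809), and mmu-miR-34b-5p to rno-miR-7# (0.534), hsa-miR-30e-3p (0.551) and mmu-miR-449b. In the pools numbered 2 and 3 alone, none of these was among the 3 closest, so the likeness rested on V1 and F1.

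Among other miRNAs linked to p53, namely miR-107, miR-143, miR-145, miR-192, miR-194 and miR-215, 7 assays were on the cards and 6 were tested. An adjusted p-value under 0.05 was found for 0 of them, 3 had a log2 fold change above 0, and the median was −0.23. The assays of mmu-miR-192 (log2 fold change −2.24, standard error 2.33) and mmu-miR-194 (−3.15, standard error 3.49) were, like mmu-miR-34a, undetermined in F1. Unlike it they were determined in V1, at a raw Ct of 33.69 and 35.01. In the pools numbered 2 and 3 they lay between 25.86 and 26.42 and between 23.67 and 24.02. The size of both values thus rested on V1. For mmu-miR-107, undetermined in V1 and F1 like mmu-miR-34a, the log2 fold change was 2.67 (standard error 1.52).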

How the data were processed

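From each pool the authors used 30 ng of RNA for reverse transcription and pre-amplification, ran the cards for 40 cycles and deposited the raw Ct of each well, a value in cycles without normalization, with wells that did not cross the threshold as undetermined. They also deposited a table of their own fold changes between the groups, which was not used. Groups and pool numbers came from the sample labels. RNA was extracted from each pool on its own. Whether the pools came from separate collections is not given in the sources used here, and p-values measure the spread between these pools.

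Undetermined wells were excluded, as in the study's methods. Assays determined in 2 or more pools of both groups were fitted with lmFit and eBayes (limma 3.58.1, R 4.3.3) on −ΔCt. Tests were 2-sided, with Benjamini-Hochberg adjustment over 335 assays. The fit was also run on simulated data with the same spread for every assay, the median of the pools numbered 2 and 3. That run did not hold the spread of V1 and F1, so it cannot show how the fit behaves with them. Exact permutation tests were over pools. The small number of pools and the spread between them, which limma shares over assays, set the width of the intervals. The intervals were narrower without V1 and F1 for each tested family assay, also for mmu-miR-34a, which was undetermined in both. Python 3.11.15 with pandas 2.3.3 and numpy 2.4.6 handled the tables. The pool number was taken as a pairing, and tried as a block. The deviations of same-numbered pools from their group means correlated at 0.80, 0.78 and 0.67 for the numbers 1, 2 and 3, over the assays determined in all pools. V1 and F1 enter the group means, so their shared distance from the other pools is in all of these correlations. The correlations thus show a likeness of V1 and F1. They cannot decide whether V2 pairs with F2 or V3 with F3. The summed levels of miR-290 to miR-295 and miR-302 were nearer across numbers, −7.50 in V2 and −7.23 in F3, and −5.30 in V3 and −5.57 in F2.

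All assays of the name rule were reported. Also named were mmu-miR-34c#, the 3 closest profiles for each family assay determined in all pools, and lists of p53-linked and cell type markers (embryo, smooth muscle and stroma, myeloid, red blood cell, muscle, liver, neuron). Members and lists were chosen with earlier results of these data known. The alternatives were other references, other treatments of undetermined wells, the block, other tests and pools left out.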

Additional observations from a re-analysis of the deposited data

How the results depend on the processing

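Under the 17 alternatives tried, 0 assays passed 0.05 after adjustment, and the count before adjustment ranged from 0 to 16, the latter in the pools numbered 2 and 3 (main 1). The pool number as a block gave 0 of 330 adjusted and 4 unadjusted, and with this pairing no family assay passed either threshold. Of 97 alternative fold changes of family assays, 40 equalled the main value and say nothing of its stability. Of the other 57, 49 kept their direction and 8 reversed. The reversals were mmu-miR-34a with the other controls (−0.21) and without a reference (−0.060), mmu-miR-449a in the pools numbered 2 and 3 (−0.34) and without V1 (−0.37), mmu-miR-34c without F1 (−0.52), and mmu-miR-34b-3p without V2 (0.19), V3 (0.65) or F3 (0.065); the cause was not tested. With each pool left out in turn, mmu-miR-34c ranged from −0.52 to 3.13, mmu-miR-449a from −0.37 to 1.74, mmu-miR-34b-3p from −1.26 to 0.65, mmu-miR-34b-5p from 0.20 to 2.27 and mmu-miR-449b from 0.93 to 2.26. For mmu-miR-34b-5p, a limit of 35 cycles gave 0.20. The sign-flip test over pairs of the gaps between arms was chosen after seeing the data. The difference in determined family wells stayed within −0.5 to 0.5. The other lists had 0 assays with an adjusted p-value under 0.05: red blood cell (2 tested, median log2 fold change −1.44), myeloid (4, 0.51), muscle (5, 0.40), neuron (1, 2.06) and embryo (8, −0.12); the liver assay was not tested. These list medians are with all pools only. That of the red blood cell list rested in part on mmu-miR-451 (−2.19). Its well was undetermined in F1 and had a raw Ct of 33.09 in V1, against 21.91 to 23.54 in the pools numbered 2 and 3. Levels cannot be read below the ΔCt that 40 cycles give, 22.18 to 23.48 across cards and pools.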
